A study of Homo sapiens with 6 samples.

Results

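The cytochrome P450 genes are described here across HEK293 cells with and without MUL1. Members were chosen by symbol: every protein-coding gene whose name is CYP followed by a family number, a subfamily letter and a member number, except CYP51A1, the sterol demethylase of cholesterol synthesis. This gave 54 of the 57123 genes in the count tables. HEK293 is a line of human embryonic kidney cells grown in culture. RNA of 3 libraries of wild-type cells (WT) and 3 libraries of cells with MUL1 inactivated by CRISPR-Cas9, MUL1(−/−), was sequenced, and both genotypes were grown in DMEM with fetal calf serum, glutamine, penicillin and streptomycin. MUL1 is an E3 ubiquitin ligase of the mitochondrial outer membrane. The sources used here do not say how many clones of each genotype, or which passages, the libraries came from, so the p-values measure the spread between these libraries, and a difference between genotypes cannot be told apart from a difference between cell clones.

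P450 enzymes hold a heme whose iron is bound by a cysteine, and they use oxygen and electrons from a partner protein to oxidise their substrates. Those of families 1 to 3 oxidise mainly drugs, toxins and fatty acids and are best known from liver, while others make or break down steroid hormones, bile acids, vitamin D and retinoic acid. In the endoplasmic reticulum the electrons come from P450 reductase (POR), and in mitochondria from ferredoxin reductase and ferredoxin (FDXR and FDX1).

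The stretch around the heme-binding cysteine is the part of the coding sequence that P450 genes share. It is shown because counts of the exon bin that holds the cysteine codon are given in the results. Such a bin can be much longer than the stretch, 3227 bases in CYP26B1, so its counts are not of reads over the stretch alone. A coding stretch of 30 bases around the codon of the heme-binding cysteine was located in 52 of the 54 members from GENCODE 29 transcripts. Its bases were recorded for fewer, with TGT as the cysteine codon in 21 and TGC in 27. The stretch is shown for the 4 called members with the highest levels and for CYP2A6, with the cysteine codon in capitals.
CYP2E1: ttttccacaggaaaacgagtgTGTgctgga
CYP3A5: tttggaactggacccagaaacTGCattggc
CYP24A1: tttggcgttggaaaaagaatgTGCattggt
CYP26B1: ttcggtggcggtgtccggaccTGCctgggc
CYP2A6: ttttccatcggaaagcggaacTGTttcgga
In CYP3A5 the stretch lies within 1 coding exon, at chr7:99650157-99650186 on the minus strand of GRCh38. In CYP24A1 it lies at chr20:54157430-54157459 and in CYP26B1 at chr2:72132437-72132466, both also within 1 coding exon of the minus strand. In CYP2E1 and CYP2A6 the 30 bases join the ends of neighbouring exons. The stretch of CYP2A7 was identical to that of CYP2A6. CYP4A11 and CYP4A22 also shared theirs, as did CYP3A4 and CYP3A7. Over whole coding sequences, CYP4A11 and CYP4A22 were 97.4% identical, CYP2A6 and CYP2A7 96.4% and CYP3A4 and CYP3A5 89.3%. Reads of such near-identical copies can be split between them by the counting, so the values of CYP2A6, CYP2A7, CYP4A11 and CYP4A22 are uncertain as to the copy. CYP26A1 and CYP26B1 were only 54% identical, and CYP24A1 and CYP27B1 47.3%.

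The libraries held 127015142 to 142803296 counts over genes in WT and 121917971 to 122441959 in MUL1(−/−). Levels are given as CPM, the count scaled to a common library size after TMM correction, so that 1 count was worth 0.00707 to 0.00807 CPM. MUL1 itself was at 16.5 ± 2.15 CPM in WT and at 18.2 ± 1.35 CPM (SD, n = 3 each) in those labelled MUL1(−/−) (log2 fold change 0.14, SE 0.10, edgeR adjusted p = 0.321), so its count did not check the labels. The first principal component, with 96.2% of the variance of the most variable genes, separated the genotypes, and on the second (1.99%) MUL1(−/−) 3 stood at 7.73 against -4.3 and -3.75 for the other MUL1(−/−) libraries. All 7 kidney epithelium markers were measured, with a summed level of 467 to 514 CPM in WT and 312 to 346 CPM in MUL1(−/−), and most of that difference was KRT8, at 324 ± 18.7 and 170 ± 12 CPM (SD, n = 3; log2 fold change -0.93, edgeR adjusted p = 2.05e-07). PAX2 was called lower, from 9.45 ± 1.48 to 2.72 ± 0.724 CPM, while EPCAM and KRT18 had log2 fold changes of 0.01 and overlapped between genotypes. The 4 fibroblast markers summed to 23.7 to 31.2 CPM in WT and 27.9 to 36.8 CPM in MUL1(−/−), with LUM and DCN called higher, COL1A1, the most abundant, lower without reaching the fold threshold (log2 fold change -0.39, edgeR adjusted p = 0.00832) and COL1A2 not past the test. The 5 blood cell markers summed to 1.86 to 2.44 and 3.07 to 3.51 CPM, with PTPRC called higher and CD3E at or under 3 counts in every library. The 3 neuronal filament genes known in HEK293 summed to 115 to 154 and 97.3 to 134 CPM, and the 6 proximal tubule markers to 36 to 39.1 and 37 to 43.1 CPM. What part such levels have in the results was not tested.

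HEK293 cells expressed most of the gene family at low levels. A count of 3 or less was taken as not told from absent, an allowance for counting error only. Above it in every WT library were 36 members, in every MUL1(−/−) library 39, in every library of both genotypes 35 and in every library of at least 1 genotype 40. CYP4A22 was above it throughout in WT only, and 4 members, CYP21A2, CYP4B1 and CYP4F2 among them, in MUL1(−/−) only. The other 14 members were above it throughout in neither genotype, and 7 of them never exceeded 3 counts in any library. CYP11B1 and CYP11B2, the last enzymes of cortisol and aldosterone synthesis, had 0 counts in all 6 libraries, which allows up to 0.0212 to 0.0242 CPM in a library. With 10 counts as the limit, 31 members were above it in every library of at least 1 genotype. These counts are sums over exon bins, and a read is counted in each bin it touches, so a sum can exceed the number of reads. On the most counted bin of each gene alone, 27 members had more than 3 counts in every library of at least 1 genotype.

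**Figure D1:**
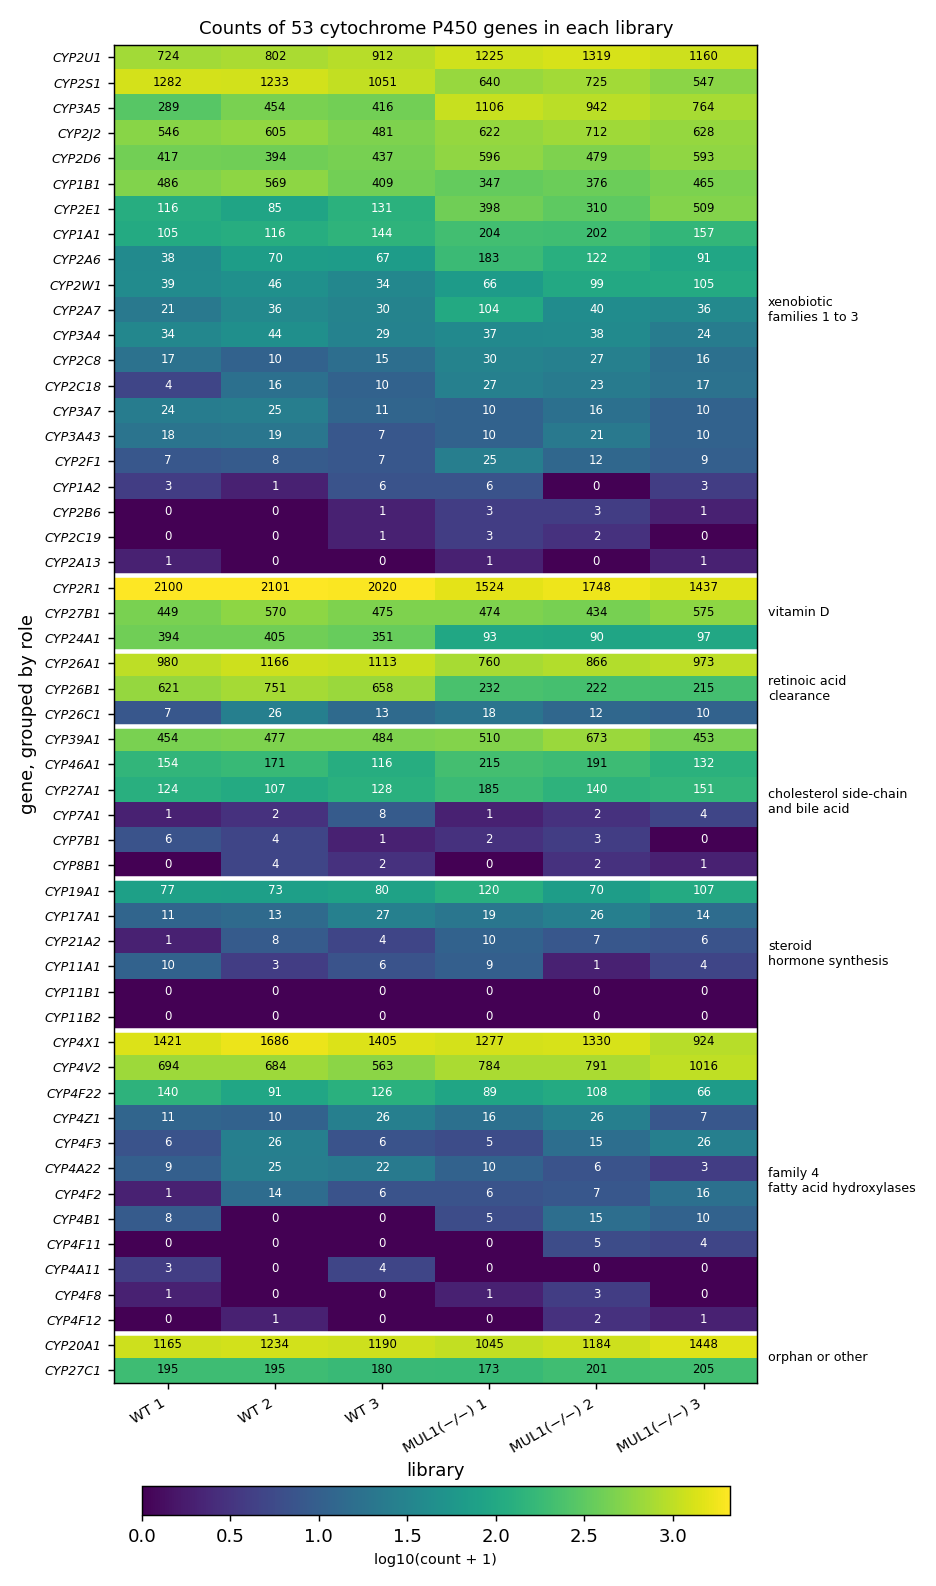
Count of 53 P450 genes (rows, grouped by role and ordered by mean count) in each of the 6 libraries (columns), printed in the cell and coloured by log10(count + 1). CYP2R1, at 1437 to 2101 counts, is the highest row in all libraries but MUL1(−/−) 3, where CYP20A1 has 1448 counts, and CYP11B1 and CYP11B2 are at 0 throughout.

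Summed over the 54 members, the level was 102 to 105 CPM in WT and 105 to 109 CPM in MUL1(−/−), so the total of the family was close in the genotypes. Its make-up was not the same. Per kilobase of exon, the highest WT levels were those of CYP4X1 (mean 4.48 CPM per kb), CYP2R1 (3.5), CYP2S1 (3.15), CYP20A1 (2.96) and CYP26A1 (2.78). In MUL1(−/−) the order was CYP4X1 (mean 3.68 CPM per kb), CYP20A1 (3.18), CYP2R1 (2.78) and CYP26A1 (2.33), and CYP2S1 had 1.77 CPM per kb, below CYP2D6 at 1.82.

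Of the 54 members, 36 passed the filter on low counts and were tested, 28 of them through both genotypes, 5 through MUL1(−/−) alone (CYP26C1, CYP2C18, CYP2C8 and CYP3A43 among them) and 3 only through both together (CYP4A22, CYP4F3 and CYP4Z1). Of these, 7 rose and 3 fell past both thresholds, a log2 fold change beyond 1 in either direction and, by the quasi-likelihood test of edgeR, a Benjamini-Hochberg adjusted p below 0.05. The 10 called are 27.8% of those tested, beside 8.11% of all 25125 tested genes and 7.94% of the protein-coding ones. By direction, the share called higher was 19.4% beside 4.23%, and the share called lower 8.33% beside 3.87%. No member passed the filter through WT alone. Some of those called higher, CYP2C18 among them, passed it through MUL1(−/−) alone. They could be tested only because they were high there, so the share called higher and the share of all 10 calls are no independent sign of a rise. Genes of low level were called more often in this comparison, 14.2% of those with a mean under 1 CPM against 4.53% of the others. Of the members, 6 of 16 and 4 of 20 were called in these classes. The libraries of the genotypes did not overlap for 18 of 36 members (50%), beside 48.5% of all tested genes, so by this measure the members were close to the rest. The median log2 fold change was 0.27 over the tested members and -0.01 over all tested genes. Leaving out MUL1(−/−) 3, the library that stood apart, gave 9 members higher and 2 lower, and leaving out MUL1(−/−) 1 gave 4 higher and 3 lower.

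**Figure D2:**
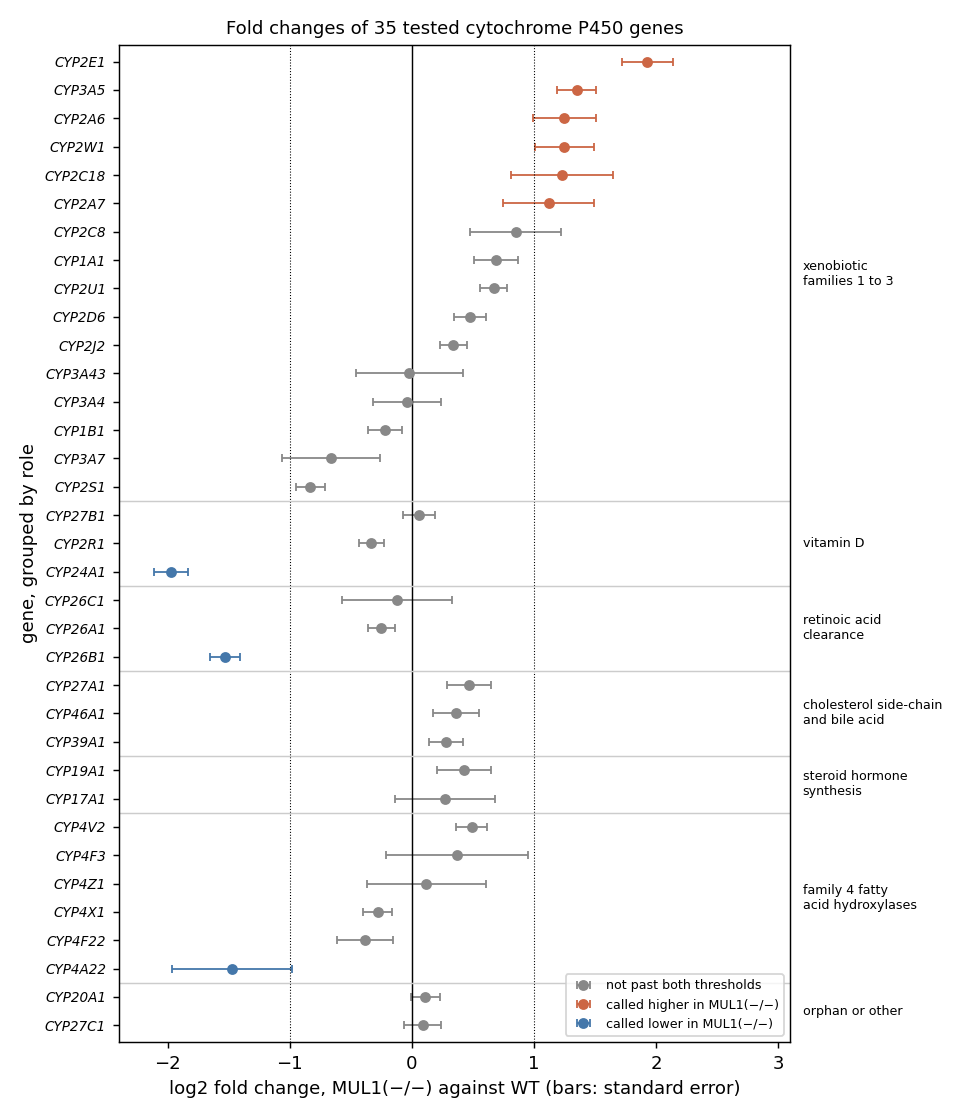
Log2 fold change of MUL1(−/−) against WT for 35 tested P450 genes, grouped by role, with bars of 1 standard error and dotted lines at -1 and 1. The genes called higher all belong to families 1 to 3, and the 3 called lower are CYP24A1, CYP26B1 and CYP4A22.

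Families 1 to 3 were counted without CYP2R1, which is grouped with the vitamin D enzymes below. Its mean fell from 15.8 CPM in WT to 12.5 CPM in MUL1(−/−), by less than the fold threshold (log2 fold change -0.33). Of the 22 other members, 17 were tested, 7 rose past both thresholds and none fell past both, although CYP2S1 fell by less than the fold threshold. Without CYP2R1, the summed level of the class was 32.1 to 33.3 CPM in WT and 41.6 to 44.7 CPM in MUL1(−/−). The median log2 fold change of its tested members was 0.69. Of the 7 hepatocyte markers only ALB and TF passed the filter, APOB was at 0 in every library, and the markers summed to 0.58 to 0.74 CPM in WT and 0.895 to 1.11 CPM in MUL1(−/−). Most of this difference was TF, at 0.382 ± 0.106 and 0.691 ± 0.0982 CPM (SD, n = 3; edgeR adjusted p = 0.00979), while ALB, at 0.169 ± 0.0957 and 0.213 ± 0.0439 CPM, overlapped between genotypes and did not pass (edgeR adjusted p = 0.532). The part of such levels in the result was not tested.

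CYP2E1 oxidises ethanol, acetone and other small molecules and is a main P450 of liver (ENSG00000130649; chromosome 10, 133520406 to 133561220, plus strand, GRCh38). It was at 0.913, 0.601 and 1.04 CPM in the WT libraries and at 3.15, 2.48 and 4.11 CPM in the MUL1(−/−) libraries. Every MUL1(−/−) library stood above every WT library, and MUL1(−/−) 3 was the highest. The level was 3.82-fold higher in MUL1(−/−) (log2 fold change 1.93, SE 0.21, edgeR adjusted p = 5.28e-06). In these bulk libraries more cells with the transcript and more transcript per cell cannot be told apart. The rise was seen along the gene: of its exon bins with at least 10 counts in all, 20 of 20 had a higher mean in MUL1(−/−) and 17 of them did not overlap between genotypes. The bin with the cysteine codon shown above had 4, 1 and 3 counts in WT and 17, 9 and 20 in MUL1(−/−). The last bin, of 6560 bases, shares positions with SYCE1 on the other strand and held 1, 1 and 4 counts in WT and 15, 14 and 17 in MUL1(−/−). Over the bins that no exon of another gene touches, which held 77.1% of its counts, the log2 fold change was 1.93.

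CYP3A5, a drug- and steroid-oxidising enzyme that kidney also makes (ENSG00000106258; chromosome 7, 99648194 to 99679998, minus strand), was the highest called member per kilobase in MUL1(−/−). It had 2.27, 3.21 and 3.3 CPM in the WT libraries and 8.74, 7.52 and 6.16 CPM in the MUL1(−/−) libraries. The ranges were well apart, and the level was 2.55-fold higher in MUL1(−/−) (log2 fold change 1.35, SE 0.16, edgeR adjusted p = 8.86e-06). A higher mean in MUL1(−/−) was found in 37 of its 40 bins with at least 10 counts, of which 31 did not overlap. The bin with its cysteine codon had 4, 9 and 10 counts in WT and 29, 25 and 26 in MUL1(−/−). Its neighbours in the CYP3A cluster did not pass the test. CYP3A4, the main drug-oxidising P450 of liver, had means of 0.27 ± 0.0405 and 0.263 ± 0.0605 CPM (SD, n = 3), and CYP3A43 0.11 ± 0.0477 and 0.109 ± 0.0507 CPM. CYP3A7, the form of fetal liver, had 0.151 ± 0.0555 and 0.0958 ± 0.0277 CPM (log2 fold change -0.66, SE 0.40, edgeR adjusted p = 0.22).

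CYP2W1, an enzyme known from fetal gut and colon tumours, had 0.307, 0.325 and 0.27 CPM in WT and 0.522, 0.791 and 0.847 CPM in MUL1(−/−), with no overlap (log2 fold change 1.25, SE 0.24, edgeR adjusted p = 6.71e-04). All 16 of its bins with at least 10 counts had the higher mean in MUL1(−/−), 7 of them without overlap.

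CYP2A6, the nicotine and coumarin hydroxylase, and its neighbour CYP2A7, which is held to be inactive, rose together. CYP2A6 had 0.299, 0.495 and 0.532 CPM in WT and 1.45, 0.974 and 0.734 CPM in MUL1(−/−) (log2 fold change 1.25, SE 0.26, edgeR adjusted p = 0.00165). CYP2A7 had 0.165, 0.254 and 0.238 CPM in WT and 0.822, 0.319 and 0.29 CPM in MUL1(−/−) (log2 fold change 1.12, SE 0.37, edgeR adjusted p = 0.0277). In both, the ranges did not overlap and MUL1(−/−) 1 was the highest library. Without MUL1(−/−) 1 neither was called, with log2 fold changes of 0.96 and 0.48. Without WT 1 the CYP2A7 call was also lost (0.95), while that of CYP2A6 was kept.

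**Figure D3:**
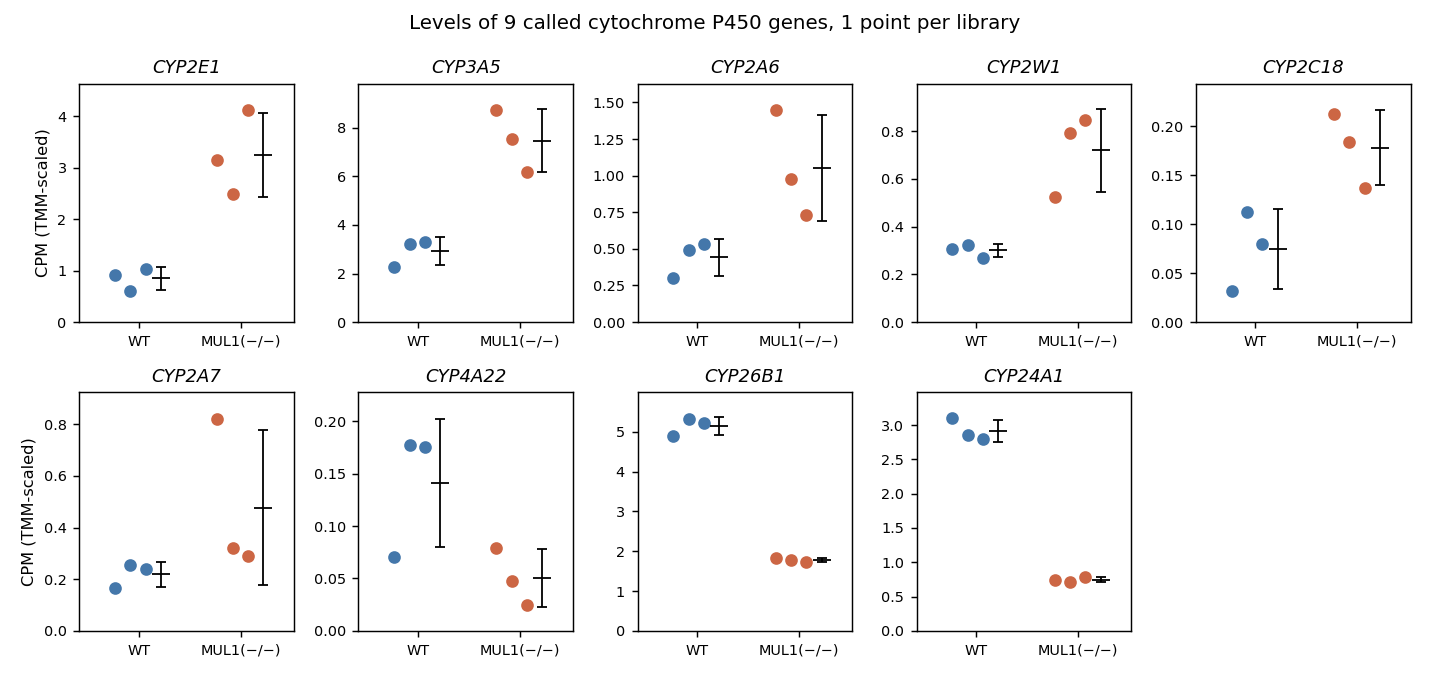
TMM-scaled CPM of 9 called P450 genes, each panel with its own linear axis from 0, 1 point per library (blue WT, orange MUL1(−/−)) and the mean with a bar of 1 SD (n = 3). In CYP24A1 and CYP26B1 the genotypes are far apart and the libraries of a genotype close together, whereas in CYP2A7 the mean of MUL1(−/−) rests on 1 library at 0.822 CPM, and in CYP4A22 the lowest WT library (0.0708 CPM) overlaps the MUL1(−/−) range.

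CYP2C18, of a subfamily whose enzymes oxidise drugs and arachidonic acid, rests on few counts over 6 bins, which cover part of its exons. It passed the filter through MUL1(−/−) alone and had 4, 16 and 10 counts in WT and 27, 23 and 17 in MUL1(−/−) (log2 fold change 1.23, SE 0.42, edgeR adjusted p = 0.0323), and this call was lost when WT 1, WT 3, MUL1(−/−) 1 or MUL1(−/−) 2 was left out, with adjusted p of 0.135, 0.0653, 0.118 and 0.0829 in edgeR. CYP2C8 had means of 0.108 ± 0.033 and 0.194 ± 0.0572 CPM (SD, n = 3) and did not pass (edgeR adjusted p = 0.0859).

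CYP2R1 aside, a further 5 members of these families passed the adjusted p but not the fold threshold, 4 of them upward and 1 downward. CYP2U1, a fatty acid hydroxylase, had 5.7, 5.67 and 7.24 CPM in WT and 9.68, 10.5 and 9.36 CPM in MUL1(−/−) (log2 fold change 0.67, edgeR adjusted p = 3.02e-04). CYP1A1, the classic target of the aryl hydrocarbon receptor, had 0.826, 0.82 and 1.14 CPM in WT and 1.61, 1.61 and 1.27 CPM in MUL1(−/−) (0.69, edgeR adjusted p = 0.00669). CYP2D6, which oxidises many amine drugs, had 3.28, 2.78 and 3.47 CPM in WT and 4.71, 3.83 and 4.78 CPM in MUL1(−/−) (0.48, edgeR adjusted p = 0.00886). The arachidonic acid epoxygenase CYP2J2 had 4.3, 4.28 and 3.82 CPM in WT and 4.92, 5.69 and 5.07 CPM in MUL1(−/−) (0.34, edgeR adjusted p = 0.0283). All 4 were higher in every MUL1(−/−) library than in any WT library. CYP2S1 moved the other way, from 10.1, 8.72 and 8.34 CPM in WT to 5.06, 5.79 and 4.41 CPM in MUL1(−/−) (log2 fold change -0.83, SE 0.12, edgeR adjusted p = 7.30e-05). It was lower in 18 of its 18 bins with at least 10 counts, and it lies in the same stretch of chromosome 19 (40843538 to 41207539) as CYP2A6 and CYP2A7, which rose. CYP1B1, which oxidises estradiol and polycyclic hydrocarbons, had 3.82, 4.02 and 3.25 CPM in WT and 2.74, 3 and 3.75 CPM in MUL1(−/−), which overlapped (log2 fold change -0.22, edgeR adjusted p = 0.232). The 5 members that were not tested held few counts: CYP2F1 had 7 to 8 in WT and 9 to 25 in MUL1(−/−), CYP1A2 had 0 to 6 in all libraries, CYP2B6 and CYP2C19 0 to 3, and CYP2A13 0 to 1. CYP2C19 was counted over 3 bins of 1291 bases only, fewer than the 1470 bases of its coding sequence.

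The 3 vitamin D and 3 retinoic acid enzymes were all tested, and 1 gene of each class was called, both lower. Of all tested genes, 3.87% were called lower. The retinoic acid class was drawn from clearing enzymes only, so a call in it could concern no other kind. CYP24A1, the mitochondrial hydroxylase that breaks down active vitamin D (ENSG00000019186; chromosome 20, 54153449 to 54173973, minus strand), had 3.1, 2.86 and 2.79 CPM in the WT libraries and 0.735, 0.719 and 0.782 CPM in the MUL1(−/−) libraries. It was 3.91-fold lower in MUL1(−/−) (log2 fold change -1.97, SE 0.14, edgeR adjusted p = 8.30e-08), and the libraries of each genotype lay close together. All 19 of its bins with at least 10 counts had the lower mean in MUL1(−/−), and all 19 were without overlap. The bin with the cysteine codon had 14, 21 and 21 counts in WT and 5, 5 and 3 in MUL1(−/−). CYP27B1, which makes active vitamin D, had 3.53, 4.03 and 3.77 CPM in WT and 3.75, 3.47 and 4.64 CPM in MUL1(−/−), with overlap (log2 fold change 0.06, 95% interval -0.19 to 0.32). CYP2R1, the vitamin D 25-hydroxylase, had 16.5, 14.9 and 16 CPM in WT and 12, 14 and 11.6 CPM in MUL1(−/−), a fall below the fold threshold (log2 fold change -0.33, SE 0.10, edgeR adjusted p = 0.0124). VDR, the vitamin D receptor through which CYP24A1 is known to be induced, had a log2 fold change of 0.46 (edgeR adjusted p = 0.0221).

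CYP26B1 is one of 3 enzymes that clear retinoic acid (ENSG00000003137; chromosome 2, 72129238 to 72148038, minus strand). It had 4.89, 5.31 and 5.22 CPM in WT and 1.83, 1.77 and 1.73 CPM in MUL1(−/−), 2.89-fold lower with no overlap (log2 fold change -1.53, SE 0.12, edgeR adjusted p = 1.68e-07). All 11 of its bins with at least 10 counts were lower, 8 of them without overlap. Most of its counts fell in a single bin of 3227 bases that also holds the cysteine codon, with 333, 432 and 355 counts in WT and 127, 116 and 108 in MUL1(−/−). CYP26A1 had 7.71, 8.24 and 8.83 CPM in WT and 6.01, 6.92 and 7.85 CPM in MUL1(−/−), which overlapped (log2 fold change -0.25, edgeR adjusted p = 0.0937). CYP26C1, beside CYP26A1 on chromosome 10, was at 0.114 ± 0.065 and 0.106 ± 0.0321 CPM (SD, n = 3) and did not pass the test. The 3 genes together had 12.7 to 14.2 CPM in WT and 7.98 to 9.66 CPM in MUL1(−/−).

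**Figure D4:**
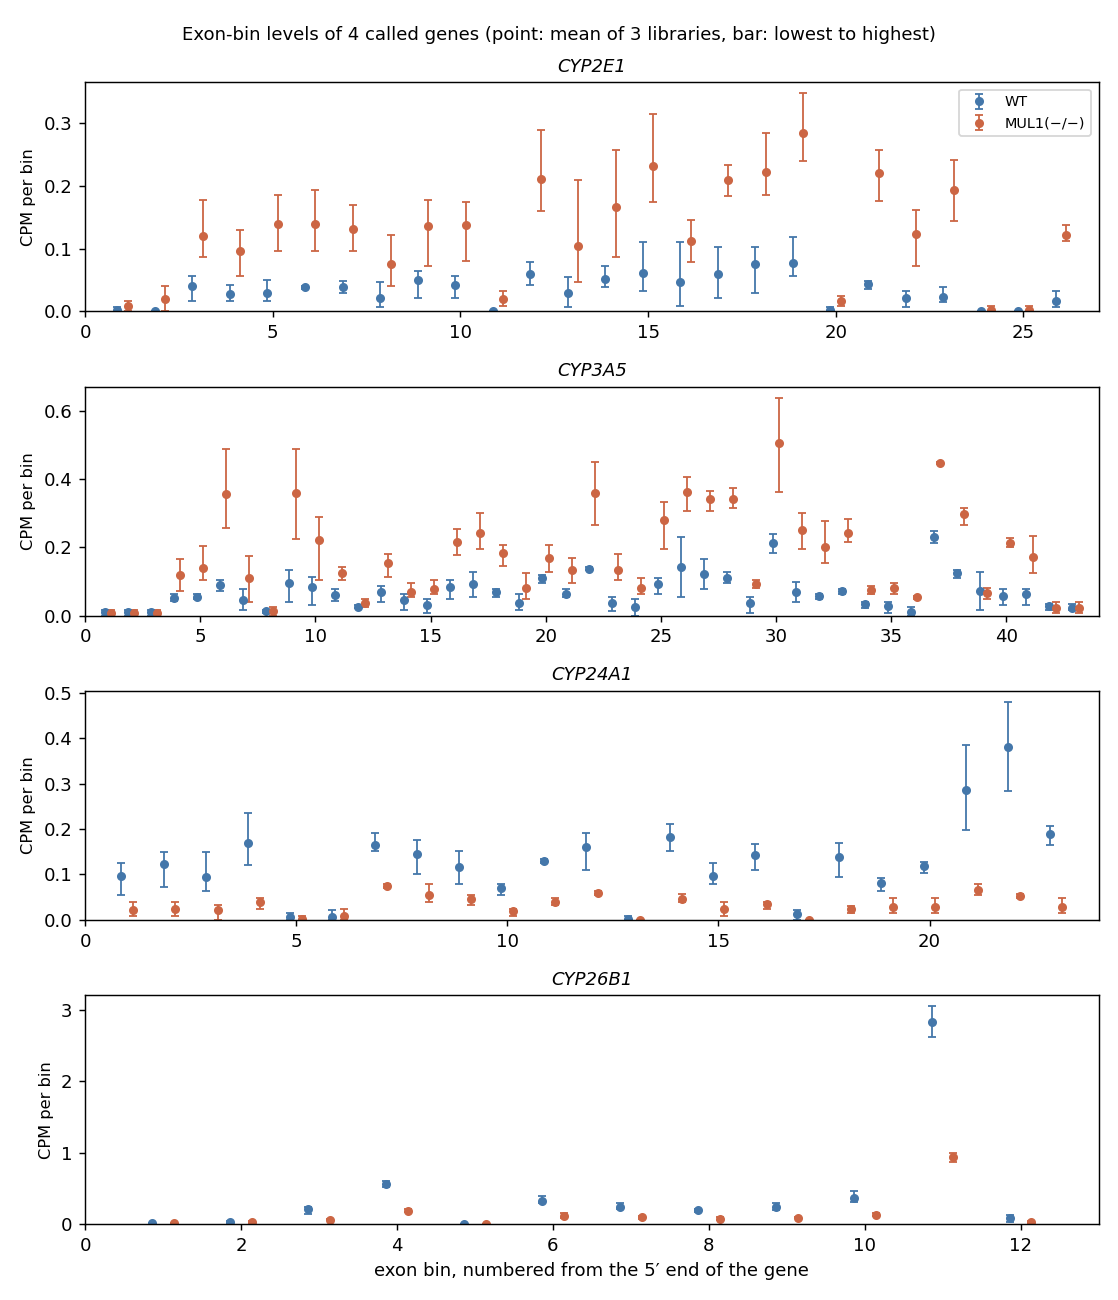
CPM of each exon bin of CYP2E1, CYP3A5, CYP24A1 and CYP26B1, numbered from the 5′ end, as the mean of 3 libraries (blue WT, orange MUL1(−/−)) with bars from the lowest to the highest library. The genotypes differ in the same direction in all 20 well-counted bins of CYP2E1, all 19 of CYP24A1 and all 11 of CYP26B1, and in 37 of 40 of CYP3A5.

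Enzymes of cholesterol and bile acid metabolism showed no call at both thresholds. CYP27A1, a mitochondrial sterol 27-hydroxylase, had 0.976, 0.756 and 1.02 CPM in WT and 1.46, 1.12 and 1.22 CPM in MUL1(−/−), with no overlap (log2 fold change 0.47, SE 0.18, edgeR adjusted p = 0.0479). The oxysterol hydroxylase CYP39A1 had 3.57, 3.37 and 3.84 CPM in WT and 4.03, 5.38 and 3.65 CPM in MUL1(−/−) (0.28, edgeR adjusted p = 0.145). CYP46A1, the cholesterol 24-hydroxylase of brain, had 1.21, 1.21 and 0.92 CPM in WT and 1.7, 1.53 and 1.06 CPM in MUL1(−/−) (0.36, edgeR adjusted p = 0.155). The latter 2 overlapped between genotypes. CYP7A1, the rate-limiting enzyme of bile acid synthesis, had 1 to 8 counts, CYP7B1 0 to 6 and CYP8B1 0 to 4, and none of these was tested.

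Of the 6 steroid hormone enzymes, 2 were tested and neither passed. CYP19A1, the aromatase that makes estrogens, stood at 0.586 ± 0.0619 CPM in WT against 0.79 ± 0.205 CPM in MUL1(−/−) (SD, n = 3; edgeR adjusted p = 0.134). CYP17A1, needed for androgens and cortisol, had 0.131 ± 0.0722 and 0.157 ± 0.0477 CPM (edgeR adjusted p = 0.649). CYP11A1, which begins steroid synthesis, had 1 to 10 counts and CYP21A2 1 to 10. STAR, which brings cholesterol to CYP11A1, was called higher among the 4 adrenal cortex markers, which summed to 0.181 to 0.365 CPM in WT and 0.583 to 0.632 CPM in MUL1(−/−).

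In family 4, whose enzymes hydroxylate fatty acids, 6 of 12 members were tested and CYP4A22 alone was called. It had 9, 25 and 22 counts in WT and 10, 6 and 3 in MUL1(−/−), so WT 1 lay within the MUL1(−/−) range (log2 fold change -1.47, SE 0.49, edgeR adjusted p = 0.0292). The call was lost on leaving out WT 2, WT 3, MUL1(−/−) 2 or MUL1(−/−) 3, with edgeR adjusted p of 0.121, 0.095, 0.0906 and 0.107. Its near-copy CYP4A11 had 3, 0 and 4 counts in WT and 0 in each MUL1(−/−) library. CYP4V2, mutated in Bietti crystalline dystrophy, had 5.46, 4.83 and 4.47 CPM in WT and 6.2, 6.32 and 8.2 CPM in MUL1(−/−), without overlap (log2 fold change 0.49, SE 0.13, edgeR adjusted p = 0.00742). CYP4X1, the highest member per kilobase, had 11.2, 11.9 and 11.1 CPM in WT and 10.1, 10.6 and 7.45 CPM in MUL1(−/−), a difference that did not pass (-0.28, edgeR adjusted p = 0.0794) although the libraries did not overlap. CYP4F22, CYP4F3 and CYP4Z1 had WT means of 0.915 ± 0.241, 0.0929 ± 0.0787 and 0.121 ± 0.0741 CPM. In MUL1(−/−) they had 0.699 ± 0.165, 0.123 ± 0.0852 and 0.13 ± 0.0757 CPM, and none passed. Among the others, CYP4B1 had 0 to 8 counts in WT and 5 to 15 in MUL1(−/−), and CYP4F2 1 to 14 and 6 to 16. CYP4F11 was at 0 in WT with 0 to 5 in MUL1(−/−), and CYP4F8 and CYP4F12 did not exceed 3 counts. The orphan enzyme CYP20A1 overlapped between genotypes, with 9.17, 8.72 and 9.44 CPM in WT and 8.26, 9.46 and 11.7 CPM in MUL1(−/−). So did CYP27C1, which acts on retinol, with 1.53, 1.38 and 1.43 CPM in WT and 1.37, 1.61 and 1.65 CPM in MUL1(−/−).

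On the chromosomes, 31 of the 54 members lie in 8 groups of neighbours separated by at most 200000 bases, and members of one group did not always move alike. The CYP3A group held 1 gene called higher and 3 that did not pass. The group of CYP2A6, CYP2A7, CYP2B6, CYP2A13, CYP2F1 and CYP2S1 held 2 called higher beside the lower CYP2S1. The group of CYP4A22, called lower (log2 fold change -1.47), also held CYP4Z1 (0.12), which did not pass. CYP4F22 (-0.38) and CYP4F3 (0.37) differed in sign, and neither passed. In some other groups the neighbours named here shared a direction: CYP2C18 and CYP2C8 both had the higher mean in MUL1(−/−), CYP2C8 without passing. CYP26A1 and CYP26C1 both had the lower mean there, and neither passed, CYP26C1 with a log2 fold change of -0.12 (SE 0.45). Relative to the median of the 20 nearest tested genes, the log2 fold change was 1.52 for CYP2E1, 1.56 for CYP3A5, -1.63 for CYP24A1 and -1.64 for CYP26B1, so these 4 differed from the genes around them by more than the fold threshold.

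The start regions of the called members were compared with 3 short motifs on both strands: GCGTG, the core bound by AHR with ARNT, ACGTG, the core bound by HIF with ARNT, and TGACNNNGC, the antioxidant response core. In RefSeq's windows from 250 bases before to 50 after the gene start (GRCh38.p14), 38 members and 6 of the called ones had an entry. Some members had several windows, 51 in all. Counted by window, GCGTG was present in 12 of the 51 (23.5%) and in 36.5% of all 35116 windows, ACGTG in 12 (23.5%) and 21.4%, and TGACNNNGC in 5 (9.8%) and 13.3%. Counted by member, these motifs were in 12, 8 and 5 of the 38. Of the called members, CYP2W1 held GCGTG at 2 places and ACGTG at 1, CYP2A7 held GCGTG at 1, and CYP2A6, CYP2E1, CYP3A5 and CYP26B1 held no match. A match is only a run of letters. The window of CYP2W1, chr7:982931-983230 on the plus strand, is shown with its matches, all on the opposite strand, in capitals, followed by those of CYP2E1 (chr10:133527113-133527412, plus strand) and CYP26B1 (chr2:72147813-72148112, minus strand), the most changed member on each side with an entry.
CYP2W1: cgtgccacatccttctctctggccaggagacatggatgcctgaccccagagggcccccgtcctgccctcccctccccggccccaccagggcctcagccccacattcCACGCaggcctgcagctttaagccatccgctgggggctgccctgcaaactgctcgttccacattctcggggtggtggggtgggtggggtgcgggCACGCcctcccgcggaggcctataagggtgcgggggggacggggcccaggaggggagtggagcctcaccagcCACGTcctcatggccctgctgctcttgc
CYP2E1: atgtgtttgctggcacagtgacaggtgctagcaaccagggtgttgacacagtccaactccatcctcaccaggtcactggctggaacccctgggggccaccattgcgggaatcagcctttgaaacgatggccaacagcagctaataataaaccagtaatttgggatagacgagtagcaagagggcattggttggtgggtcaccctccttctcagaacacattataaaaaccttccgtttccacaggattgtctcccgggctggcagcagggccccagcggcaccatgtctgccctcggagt
CYP26B1: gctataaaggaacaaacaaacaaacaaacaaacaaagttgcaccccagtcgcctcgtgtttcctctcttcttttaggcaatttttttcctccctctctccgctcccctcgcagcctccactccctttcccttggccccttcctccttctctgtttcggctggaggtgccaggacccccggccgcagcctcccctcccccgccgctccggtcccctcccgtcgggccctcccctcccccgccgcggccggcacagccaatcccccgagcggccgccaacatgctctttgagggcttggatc
The CYP26B1 window held 19 CG pairs and was 62.7% G or C, and that of CYP2E1 held 7 CG pairs and was 54.3% G or C. The windows of CYP2A6 (chr19:40850398-40850697) and CYP2A7 (chr19:40882182-40882481), both read from the minus strand, show how alike the start regions of these genes that rose together are, with the bases that differ in capitals.
CYP2A6: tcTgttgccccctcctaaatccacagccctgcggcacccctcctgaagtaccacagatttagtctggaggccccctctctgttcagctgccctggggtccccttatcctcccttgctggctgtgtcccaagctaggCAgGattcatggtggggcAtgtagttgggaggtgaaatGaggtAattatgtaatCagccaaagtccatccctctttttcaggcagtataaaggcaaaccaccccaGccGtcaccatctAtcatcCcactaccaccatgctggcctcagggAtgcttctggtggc
CYP2A7: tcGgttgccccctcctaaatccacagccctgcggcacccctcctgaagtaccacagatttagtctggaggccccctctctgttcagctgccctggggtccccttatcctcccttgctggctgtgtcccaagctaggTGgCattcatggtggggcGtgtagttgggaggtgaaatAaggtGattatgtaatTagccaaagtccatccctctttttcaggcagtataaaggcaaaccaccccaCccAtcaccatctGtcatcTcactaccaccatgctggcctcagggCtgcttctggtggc
They were identical at 287 of 300 bases (95.7%), and the GCGTG of CYP2A7 falls at one of the differences.

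Genes on the partner and regulator lists were called about as often as other genes. The lists hold electron donors, heme enzymes, regulators and follow-on enzymes of the P450 system. They also hold 3 P450 enzymes outside the symbol rule, CYP51A1, TBXAS1 and PTGIS. Of 65 genes on these lists, 57 were tested, 3 were called higher and 2 lower, 8.77% of those tested beside 8.11% of all tested genes, and their median log2 fold change was 0.07. POR stood at 90.5 ± 4.01 CPM in WT against 83.6 ± 1.76 CPM in MUL1(−/−) (SD, n = 3; log2 fold change -0.11, edgeR adjusted p = 0.203). FDX1 and FDXR had log2 fold changes of 0.17 and -0.23 (edgeR adjusted p = 0.0931 and 0.0334). Called higher were CYB5R2, a cytochrome b5 reductase, from 0.205 ± 0.0912 to 0.502 ± 0.198 CPM (log2 fold change 1.28), ARNT2, a dimer partner in the family of ARNT (1.39), and ALDH3A1, an aldehyde dehydrogenase known as a target of AHR (1.51). Called lower were AHRR, the repressor of AHR (-1.03), and PTGIS, the P450 that makes prostacyclin and falls outside the symbol rule (-3.35). The AHRR value lies near the fold threshold, and leaving out WT 3 (-0.99), or MUL1(−/−) 1 or MUL1(−/−) 2, where it stood just short of the threshold, ended the call. That of CYB5R2 was lost without WT 1 (0.96) and without MUL1(−/−) 2 (0.97). AHR itself had a log2 fold change of 0.38 (edgeR adjusted p = 0.00532), and its partner ARNT fell by less than the fold threshold, without overlap, from 72.1 ± 2.46 to 54 ± 1.75 CPM (SD, n = 3; log2 fold change -0.42, edgeR adjusted p = 2.00e-04). NR1I2, the pregnane X receptor known to induce CYP3A and CYP2C genes in liver, had 0 to 2 counts and was not tested, and HNF4A was not tested either.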

How the data were processed

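RNA of 3 WT and 3 MUL1(−/−) HEK293 libraries was sequenced by the authors, who deposited 1 table of raw exon-bin counts per library, not normalized. The submitters' processing notes name Trimmomatic 0.36, STAR 2.5.2b and GRCh38. The counting program, and whether it used strand, is not given in the sources used here, so reads of overlapping antisense genes cannot be told apart. The tables held 597973 bins of 54848 identifiers and 0 rows that name no gene.

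Bin counts were added up per gene. Since a read is counted in each bin it touches, these sums exceed read numbers (median ratio to the most counted bin 2.59) and are less precise than their size implies. Bins of the 2031 joined identifiers (20.98% of counts) were divided among genes with GENCODE 29 exons of that strand, and 15566 of them that fit several genes were left out. No counted bin of CYP2C19, CYP3A7 or CYP4V2 held the cysteine codon, so their levels come from part of their exons.

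The main test was run in edgeR 4.0.16 (R 4.3.3) with TMM factors, filterByExpr (a level of about 0.0802 CPM) and the quasi-likelihood test of genotype, adjusted over 25125 tested genes by Benjamini-Hochberg. DESeq2 1.42.0, the study's test, and limma 3.58.1 (voom) were alternatives, beside other scalings, filters, thresholds and gene counts, the replicate number as a block, each library left out, and, added after seeing the data, shared bins given to each gene. The tests were tried on simulated data of 25125 genes for this comparison, with a log2 fold change of 2 given to 200. Recovery was 200 for each of edgeR, DESeq2, voom and the block, with 2, 0, 1 and 0 false calls. Smaller changes were not simulated, and recovery was not split by level. The simulation therefore does not show how often changes near the fold threshold, or in genes under 1 CPM, are found. Replicates differed by 2.96 to 10.9 times counting noise (chi-square over its degrees of freedom) and all were used.

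Some results are not reported here. Called members and tested members with a mean of at least 1 CPM in a genotype are named with the value in each library, other tested members with means, and untested ones with counts. The members, the classes and the lists of partners and markers were chosen with earlier results of these data known. Promoter sequences came from RefSeq (GRCh38.p14), with 38 of 54 members matched by symbol, and coding sequences from GENCODE 29. Python 3.11.15, pandas 2.3.3, biopython 1.88 and matplotlib 3.10.9 were used. Protein sequences were not used here.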

Additional observations from a re-analysis of the deposited data

How the results depend on the processing

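CYP2E1, CYP3A5, CYP24A1 and CYP26B1 were called in the same direction under all 16 alternatives of tool, scaling, filter, gene count, block or library in which they were tested, with log2 fold changes of 1.73 to 2.11, 1.20 to 1.47, -2.80 to -1.90 and -1.58 to -1.46. CYP2W1 was called in 14 of 14, CYP2A6 in 14 of 15, CYP2A7 in 10 of 14, and CYP2C18 and CYP4A22 in 8 of 14. CYP2C18 and CYP4A22 were not called by DESeq2 (adjusted p = 0.0847 and 0.0864), nor CYP2A7 by voom (0.0629), and the cause was not tested. Less the median of 20 neighbours, CYP2A6 and CYP2A7 were at 0.88 and 0.75, under the fold threshold. Depth limits CYP2C18 and CYP4A22, which had at most 27 counts in any library. Members higher and lower, 7 and 3 as reported, numbered 2 and 2 with at least 1 CPM in 3 libraries, a filter that leaves fewer genes, 1 (CYP2E1) and 2 with glmTreat, 3 and 2 with the most counted bin, and 13 and 5 by the adjusted p alone. Shared bins given to each gene left 7 and 3. Leaving out 1 library gave 4 to 9 higher and 2 to 3 lower.

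Whether the replicate numbers pair the libraries is not clear. Over 15855 genes, r between same-numbered deviations was -0.0813, 0.158 and 0.1, and between differently numbered ones -0.178 to 0.0996. The values 0.158 and 0.1 were thus the highest, while -0.0813 lay within the range of the differently numbered ones. With the replicate number as a block, 5 members were higher and 2 lower, and CYP2A7, CYP2C18 and CYP4A22 were not called (adjusted p = 0.0663, 0.0527 and 0.0673).

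Partner and regulator genes, 3 higher and 2 lower, numbered 5 higher without a filter, 1 and 1 at 1 CPM or more, with glmTreat and with the most counted bin, 1 lower by library totals, and 17 and 8 by the adjusted p alone. Leaving out 1 library gave 2 to 5 higher and 1 to 2 lower. All tested genes, 1064 higher and 973 lower, numbered 331 and 446 at 1 CPM or more, 288 and 322 with glmTreat, 653 and 556 among protein-coding genes, and 4716 and 4706 by the adjusted p alone. Leaving out 1 library gave 1008 to 1277 and 902 to 1075.

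Direction turned only in members that did not pass the test. With 1 library left out the log2 fold change ran from -0.04 to 0.23 for CYP20A1 and from -0.07 to 0.16 for CYP27B1, below 0 without MUL1(−/−) 3. Less the median of 20 neighbours it was 0.07 for CYP26A1 and -0.0046 for CYP27B1, and -1.16 for CYP2S1, past the fold threshold. With the most counted bin it was -0.22 for CYP27C1, -0.05 for CYP39A1 and -0.21 for CYP46A1.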
